A study of Homo sapiens with 7 samples.

Results

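The vitamin D metabolising cytochromes are 4 P450 enzymes that make and destroy the vitamin D hormone, and this account gives the peaks of the vitamin D receptor (VDR) around their genes. A peak was taken where it overlapped the gene body or the 100 kb on either side of it, in hg19, in every list that covered the whole of that window. Of the 89218 peaks in 6 lists, 42 fell into these windows: 23 at CYP24A1, 5 at CYP27B1, 3 at CYP2R1 and 11 at CYP27A1. The peaks came from THP-1, a human monocytic leukaemia line, grown for 8 h with 100 nM 1,25(OH)2D3 (1,25D; 3 libraries) or with the solvent alone, 0.1% ethanol (EtOH; 3 libraries). An antibody against VDR pulled down the DNA, with ChIPmentation as the method, in which a transposase puts the sequencing adapters onto the precipitated chromatin. An input library was also made and not used here. The labels do not tie the replicates to separate cultures, so their spread, which the p-values measure, may be technical. Expression of the genes was not measured in these files, so all values below are of VDR occupancy near a gene and none is of its activity.

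Vitamin D from skin or diet is inert until it is hydroxylated in 2 steps. CYP2R1 and CYP27A1 carry out the first, in which the liver takes the larger part and which gives the circulating form, and CYP27B1 carries out the second, which gives the hormone itself. CYP24A1 begins the breakdown of both the hormone and its precursor. The hormone binds VDR, which sits on DNA with a retinoid X receptor, and CYP24A1 is among the best known genes that VDR switches on. Hormone-bound VDR at its promoter and at elements downstream of the gene is known from other human cells. In the kidney CYP27B1 is held down by its own product, while monocytes and macrophages make it under immune signals.

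The windows differed in which lists reach them, because 3 of the 6 lists stopped in mid-line as used here. CYP27B1 on chromosome 12 and CYP2R1 on chromosome 11 were covered by all 6 lists. CYP24A1 on chromosome 20 and CYP27A1 on chromosome 2 were covered by 5, since the list of 1,25D replicate 2 ended on chromosome 16. In the order of the lists, chromosomes 2 and 20 come after 16. The part that only these 5 lists cover runs from there to the end of the 1,25D replicate 3 list on chromosome 5. A comparison at CYP24A1 or CYP27A1 sets 2 1,25D libraries against 3 EtOH libraries. Read counts are not in the lists, so the depth behind a peak is unknown, and a missing peak means only that none passed the peak caller's threshold. The lists as used held 3647 to 15262 peaks for 1,25D and 11895 to 33820 for EtOH, with EtOH replicate 2 the longest. These totals are not comparable, since the lists of 1,25D replicates 2 and 3 and EtOH replicate 3 are the cut ones. Over the part that all 6 lists cover there were 5203, 3647 and 4424 peaks in 1,25D replicates 1 to 3. In EtOH replicates 1 to 3 there were 5251, 11317 and 5722. The fold enrichments and p-values of single peaks are the authors' and rank peaks within a list. Where folds of several lists stand side by side they describe the lists and were not tested.

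CYP24A1, the gene of hormone breakdown, had the most peaks and the strongest ones of the 4 genes, and its peaks with the highest folds were in 1,25D lists. Its gene body is on chromosome 20 at 52769985 to 52790516, on the minus strand, between the neighbouring genes BCAS1 and PFDN4 in RefSeq's order. The window held 5 and 6 peaks in 1,25D replicates 1 and 3, against 6, 3 and 3 in EtOH replicates 1 to 3. These numbers overlapped, with a mean of 5.5 ± 0.707 in the 1,25D libraries and 4 ± 1.73 in the EtOH libraries (SD, n = 2 and 3) and a two-sided exact permutation p of 0.4, where the smallest that 2 against 3 libraries can give is 0.1. Both groups were above the median of all windows of this length, which was 1 and 0 peaks for 1,25D replicates 1 and 3 against 0, 2 and 1 for EtOH replicates 1 to 3.

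Peaks with a fold enrichment of 5 or more numbered 3 and 2 in 1,25D replicates 1 and 3, while each EtOH list had 0. The groups did not overlap, and the exact permutation p was 0.1, the smallest possible here. Peaks of that fold are rarer in the EtOH lists everywhere, with a mean of 0.163 and 0.189 per window of this length in 1,25D replicates 1 and 3 and 0.0461, 0.0584 and 0.0433 in EtOH replicates 1 to 3. Such a separation, with 1,25D higher, was seen in 6.46% of all 5168 windows of this length, or 334 of them. Only windows with a peak of that fold can show it, and 1010 windows (19.5%) had at least 1 in any list. Replicate 1 of each treatment came from a list with a lower highest p than the other lists. Between these, the CYP24A1 window had 5 peaks in 1,25D and 6 in EtOH, of which 3 and 0 reached a fold of 5, and among the other lists it had 6 in 1,25D against 3 and 3 in EtOH, of which 2 against 0 and 0 reached it.

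**Figure D1:**
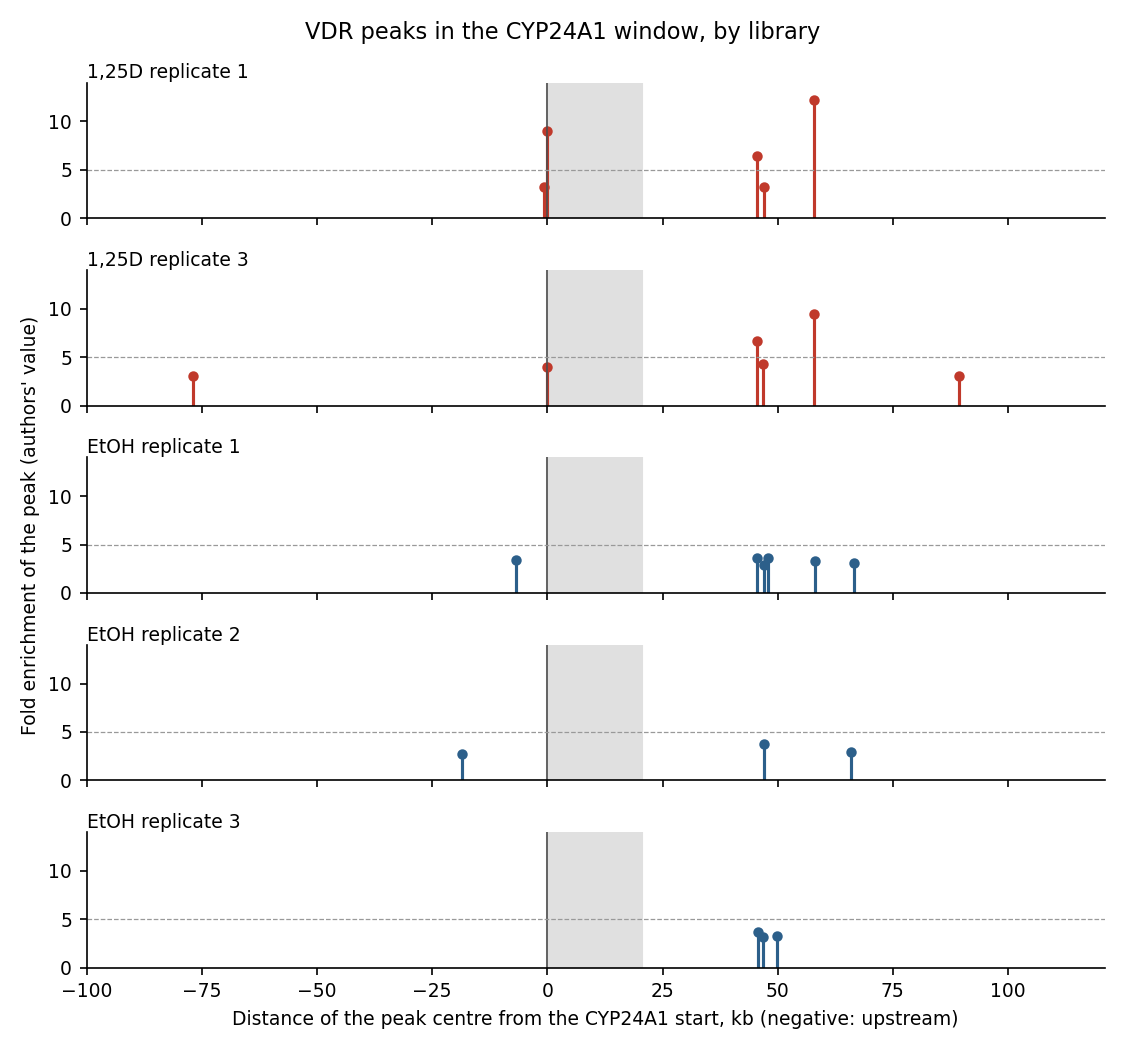
Peaks in the CYP24A1 window by library, with the distance of the peak centre from the gene start (x axis, kb, negative upstream) and the authors' fold enrichment (y axis). The grey band is the gene body and the dashed line a fold of 5; peaks above the line appear in both 1,25D lists, at the start in replicate 1 and downstream of the gene in both, and in none of the 3 EtOH lists.

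Merging peaks that shared at least 1 bp gave 13 sites in the CYP24A1 window, of which 4 were in 2 or more lists. One lay over the gene start and the other 3 lay downstream of the gene, between 45.5 and 57.9 kb from the start. No listed peak lay inside the gene body apart from the part of the start peak that reaches into it. Exons and introns were not assigned, since the annotation used here is of another genome build.

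The site at the CYP24A1 start, at 52790365 to 52790921, was the only one there called in both 1,25D lists and in no EtOH list. Its fold was 9.02 and 3.96 in 1,25D replicates 1 and 3, and no EtOH list had a peak. The authors' p-values for these peaks were 1.53e-16 and 6.70e-07. The peak of replicate 1 reached 26 bp into the gene and 345 bp upstream of it, and that of replicate 3 reached 151 bp into the gene and 405 bp upstream. Both therefore cover the start and most of their length is upstream. The EtOH peak nearest to the start was 6.58 kb upstream of it, in replicate 1 with a fold of 3.45. A 1,25D-only site means a peak in every covering 1,25D list and in no EtOH list. Such sites were 2.7% of all 23257 sites in the part of the genome that these 5 lists alone cover. Of the windows of this length, 10.4% held at least 1.

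The start site was not equally strong in the 1,25D libraries. It ranked 245 among the 4230 peaks of replicate 1 over the shared part and 1574 among the 4196 of replicate 3. Within the window it ranked 2 by fold among 5 peaks in replicate 1 and 4 among 6 in replicate 3. A weaker peak with a fold of 3.21 lay just upstream in replicate 1 only, at 52791095 to 52791303.

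The strongest site of the 4 genes lay 57.9 kb downstream of the CYP24A1 start, at 52732376 to 52732798. Its fold was 12.2 and 9.47 in 1,25D replicates 1 and 3, against 3.33 in EtOH replicate 1 and no peak in EtOH replicates 2 and 3. The authors' p-values were 1.00e-24 and 6.06e-17 for the 1,25D peaks and 0.000185 for the EtOH peak. It was the highest peak of the window in both 1,25D lists, where it ranked 148 of 4230 and 303 of 4196. In EtOH replicate 1 it ranked 3066 of 3997, and 71 other peaks of that list had the same fold and p. The 1,25D peaks had lengths of 422 and 404 bp and the EtOH peak had 175 bp.

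The next site downstream, 45.5 kb from the start at 52744697 to 52745243, had a fold of 6.37 and 6.68 in 1,25D replicates 1 and 3. In EtOH replicates 1 and 3 it had 3.57 and 3.71, and EtOH replicate 2 had no peak. It was therefore called under both treatments. It ranked 519 of 4230 and 567 of 4196 peaks in the 1,25D lists, against 2165 of 3997 in EtOH replicate 1 and 515 of 4667 in EtOH replicate 3. By rank within its list, the peak in EtOH replicate 3 was thus level with the 1,25D lists, but it was offset from their peaks. It lay at 52744697 to 52744922, and the 1,25D peaks began at 52744866 and 52744830, so they overlapped only at its end. Its fold and p were shared with 270 other peaks of its list. The site's peak in EtOH replicate 1 shared its fold and p with 776 other peaks of that list.

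Separated from it by 585 bp was the only site of the 4 genes that every covering list called, 46.9 kb from the start at 52743100 to 52744112. Its fold was 3.25 and 4.25 in 1,25D replicates 1 and 3, against 2.84, 3.78 and 3.15 in EtOH replicates 1 to 3. These values overlapped between treatments, and the site stayed below 5 in each list. Sites in every list were 1.34% of all sites of this part and 5.71% of windows of this length held one.

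**Figure D2:**
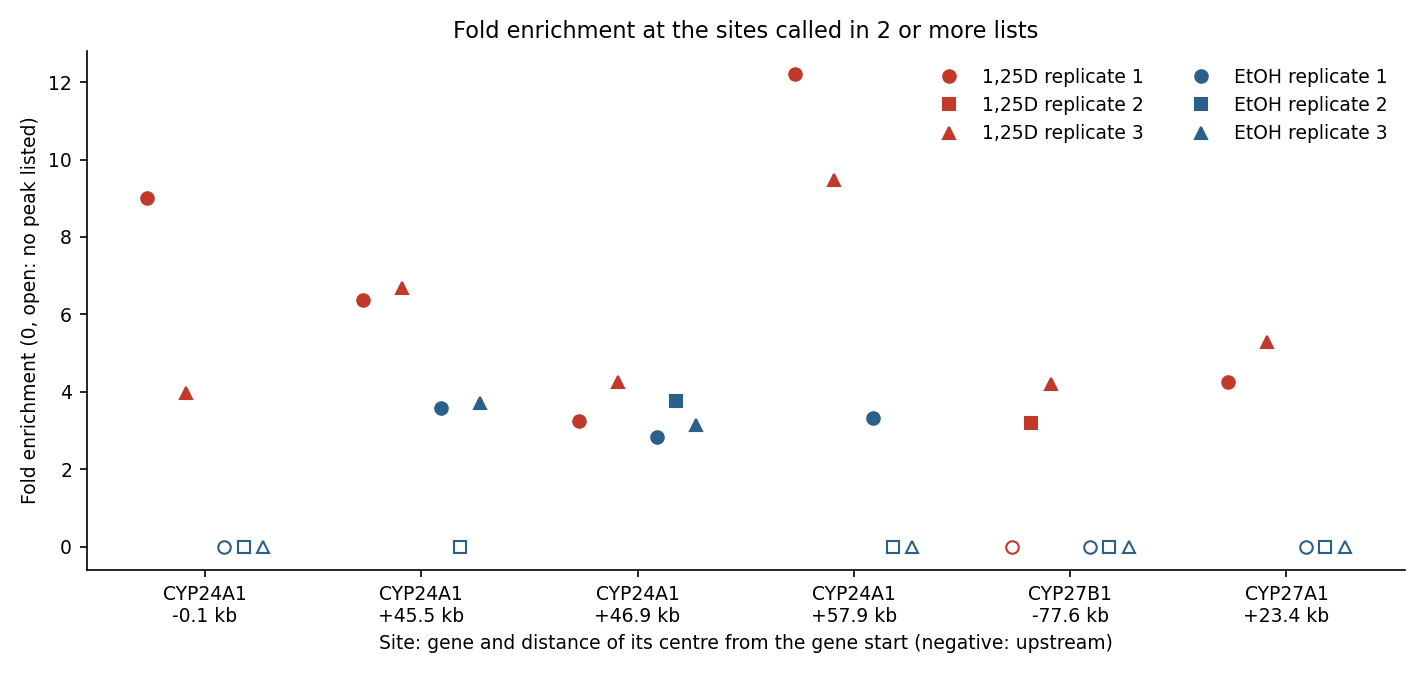
Fold enrichment (authors' value) in each library at the 6 sites called in 2 or more lists, in order of gene and distance from the gene start; open symbols at 0 mean that no peak was listed, and 1,25D replicate 2 is drawn only at CYP27B1, since its list does not reach the other genes' sites. At CYP24A1 the start site, the site at 45.5 kb and the site at 57.9 kb are higher in 1,25D than in any EtOH list, and the site at 46.9 kb overlaps between treatments.

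The remaining 9 CYP24A1 sites were each in 1 list. The 3 from 1,25D lists had folds of 3.02 to 3.21 and the 6 from EtOH lists had folds of 2.77 to 3.57. Single-list sites made up 91.9% of all sites of this part of the genome, so such peaks are the commonest kind anywhere in these lists. They were scattered from 76.9 kb upstream to 89.3 kb downstream of the start.

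CYP27A1, the mitochondrial sterol hydroxylase that also acts in bile acid synthesis, had a single site in more than 1 list. Its gene body is on chromosome 2 at 219646472 to 219680016, on the plus strand, with TTLL4 and PRKAG3 as neighbours. The window held 2 and 3 peaks in 1,25D replicates 1 and 3, against 0, 6 and 0 in EtOH replicates 1 to 3. All EtOH peaks were thus from replicate 2, the longest list, and the groups overlapped (mean 2.5 ± 0.707 in 1,25D and 2 ± 3.46 in EtOH, SD, n = 2 and 3, exact permutation p = 1).

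The shared CYP27A1 site lay inside the gene, at 219669569 to 219670270, 23.4 kb from its start. Its fold was 4.24 in 1,25D replicate 1, where 2 separate peaks were listed and this is the higher, and 5.28 in 1,25D replicate 3, and no EtOH list had a peak there. It was a 1,25D-only site, as 10.9% of the windows of this length have. By these folds it ranked 1270 of 4230 and 868 of 4196 peaks, lower than the downstream CYP24A1 site at 57.9 kb in both lists. The higher peak of replicate 1, at 219670121 to 219670270, shared its fold and p with 135 other peaks of that list. The other peak of replicate 1, at 219669627 to 219670055, lay wholly within the peak of replicate 3. It had a fold of only 3.01 and ranked 3886 of 4230. The peak of 1,25D replicate 3 was the only one in the CYP27A1 window with a fold of 5 or more, and the window had 0 sites in every list, where 6.08% of windows of this length had at least 1.

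The EtOH peaks in the CYP27A1 window reached a fold of 2.69 to 4.08. The nearest to the gene start was 5.86 kb inside the gene, with a fold of 3.53. No peak of any covering list lay closer to the start, in contrast to CYP24A1. Single-list 1,25D peaks had folds of 3.09 and 4.17.

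CYP27B1, which makes the hormone from its precursor, had no peak in its gene body and the nearest one lay 49.7 kb upstream of its start. The gene body is on chromosome 12 at 58156117 to 58160976, on the minus strand, between MARCHF9 and METTL1. The window held 1, 2 and 1 peaks in 1,25D replicates 1 to 3 and 0, 1 and 0 in EtOH replicates 1 to 3 (mean 1.33 ± 0.577 against 0.333 ± 0.577, SD, n = 3 each, exact permutation p = 0.3, the smallest possible being 0.1). The groups touched at 1 peak.

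That nearest peak was in 1,25D replicate 1, with a fold of 3.61. The only site in more than 1 list was 77.6 kb upstream, at 58238430 to 58238758, with a fold of 3.20 and 4.21 in 1,25D replicates 2 and 3 and no peak in 1,25D replicate 1 or any EtOH list. A second peak of 1,25D replicate 2 lay next to it, at 58238114 to 58238325, with a fold of 3.53. Since replicate 1 lacks the site, CYP27B1 had 0 1,25D-only sites, where 8.24% of windows of this length had at least 1 and 1.7% of the sites in the part covered by 6 lists were of that kind. It also had 0 sites in every list, which 5.43% of such windows had and which made up 1.03% of all sites of that part. The CYP27B1 neighbourhood holds many genes, and which of them the upstream site lies in was not assigned.

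CYP2R1, the microsomal enzyme of the first step, had 3 peaks in its window, against 5 at CYP27B1. This order depended on the window: with 50 kb on either side there were 2 at CYP2R1 and 1 at CYP27B1, and with 200 kb 12 and 7. The gene body is on chromosome 11 at 14899555 to 14913752, on the minus strand, between PDE3B and CALCA. The window held 0, 0 and 1 peaks in 1,25D replicates 1 to 3 and 2, 0 and 0 in EtOH replicates 1 to 3 (exact permutation p = 1, n = 3 each). No 2 lists shared a site there. The window thus had no 1,25D-only site, which 8.72% of windows of this length had, and no site in every list, which 5.8% had. The share of windows in which no 2 lists share a site was not counted.

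The 1,25D peak near CYP2R1 lay 21.8 kb upstream with a fold of 3.45, a value that 432 other peaks of the same list had with the same p. The EtOH peaks lay 26.1 kb and 65.0 kb upstream, with folds of 2.86 and 2.62. None of the 3 was in the gene body.

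**Figure D3:**
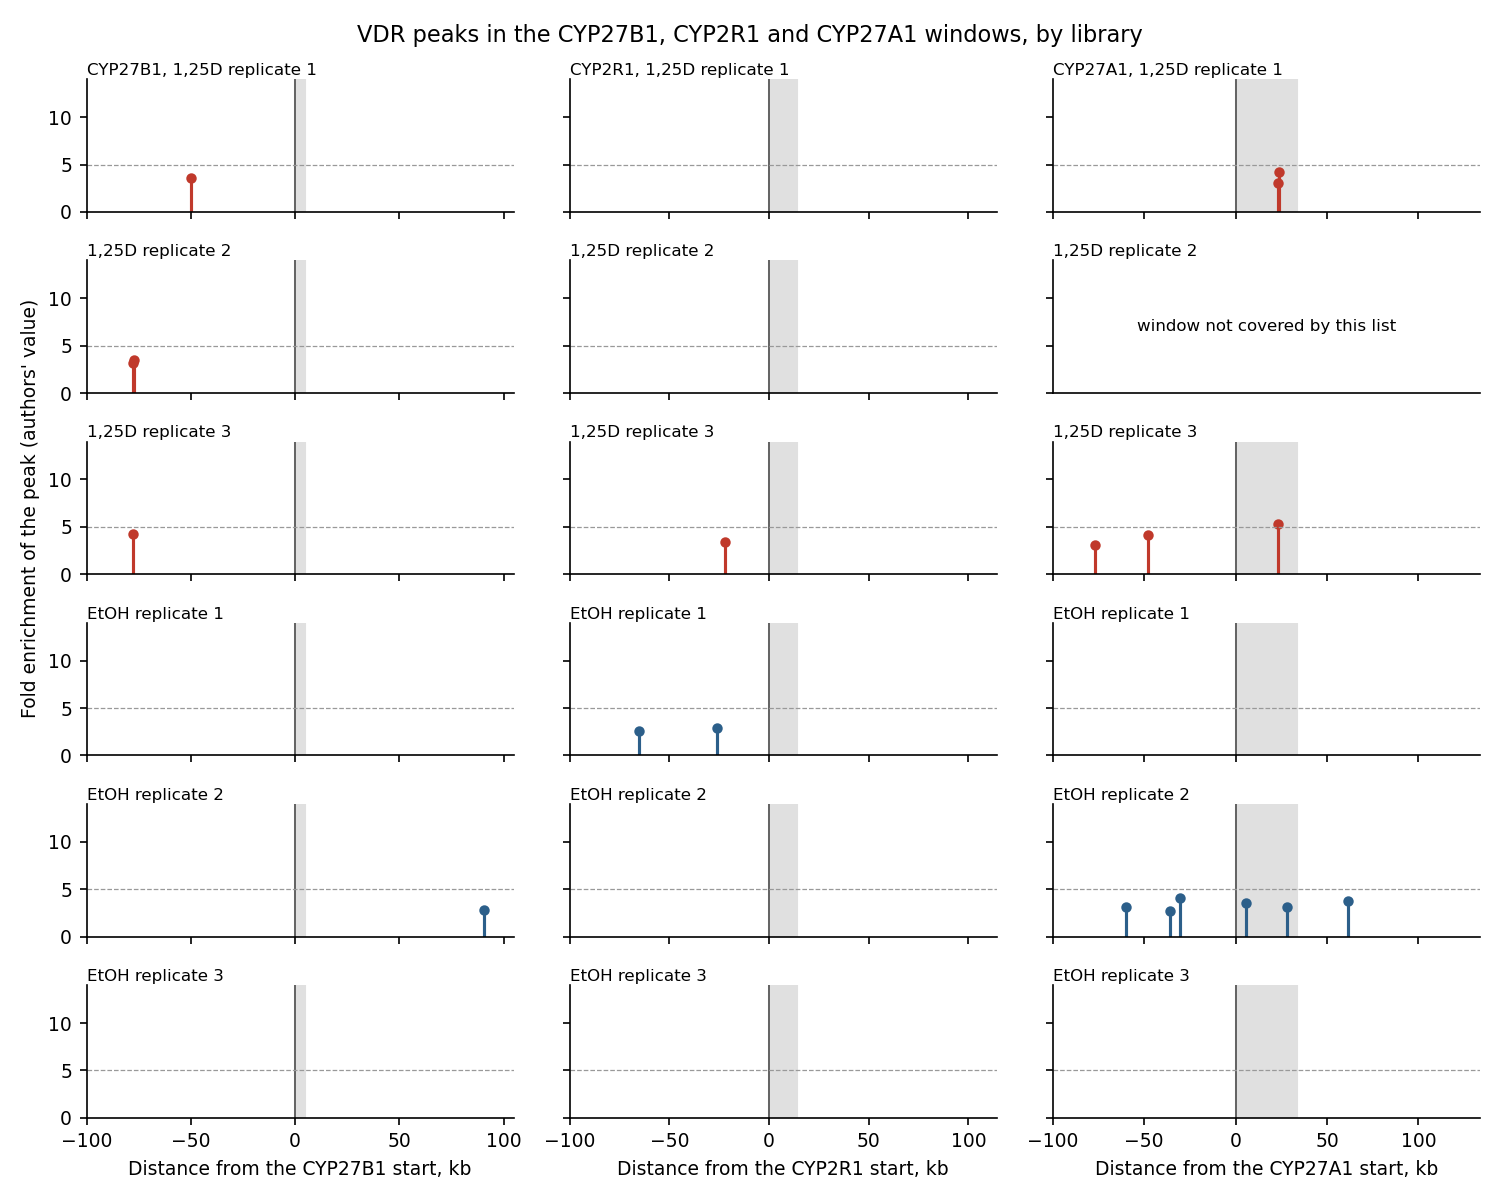
Peaks in the windows of CYP27B1, CYP2R1 and CYP27A1 by library, with the distance of the peak centre from each gene's start (x axis, kb, negative upstream) and the authors' fold enrichment (y axis); the grey band is the gene body and the dashed line a fold of 5. The CYP27B1 and CYP2R1 gene bodies hold no peak, and in the CYP27A1 gene body both 1,25D lists have peaks at the same place, 23.4 kb from the start.

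By the highest fold in any list within these windows the genes stand in the order CYP24A1 (12.2), CYP27A1 (5.28), CYP27B1 (4.21) and CYP2R1 (3.45). The last 3 values lie closer together than the folds of the CYP24A1 start site in its 2 1,25D libraries, and CYP27B1 and CYP2R1 had no peak with a fold of 5 in any list. At least 1 such peak in any list was found in 19.5% of windows of the CYP24A1 length, 20.6% of the CYP27A1 length, 19.6% of the CYP27B1 length and 20.7% of the CYP2R1 length. Most windows of the genome are in this respect like CYP27B1 and CYP2R1.

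**Figure D4:**
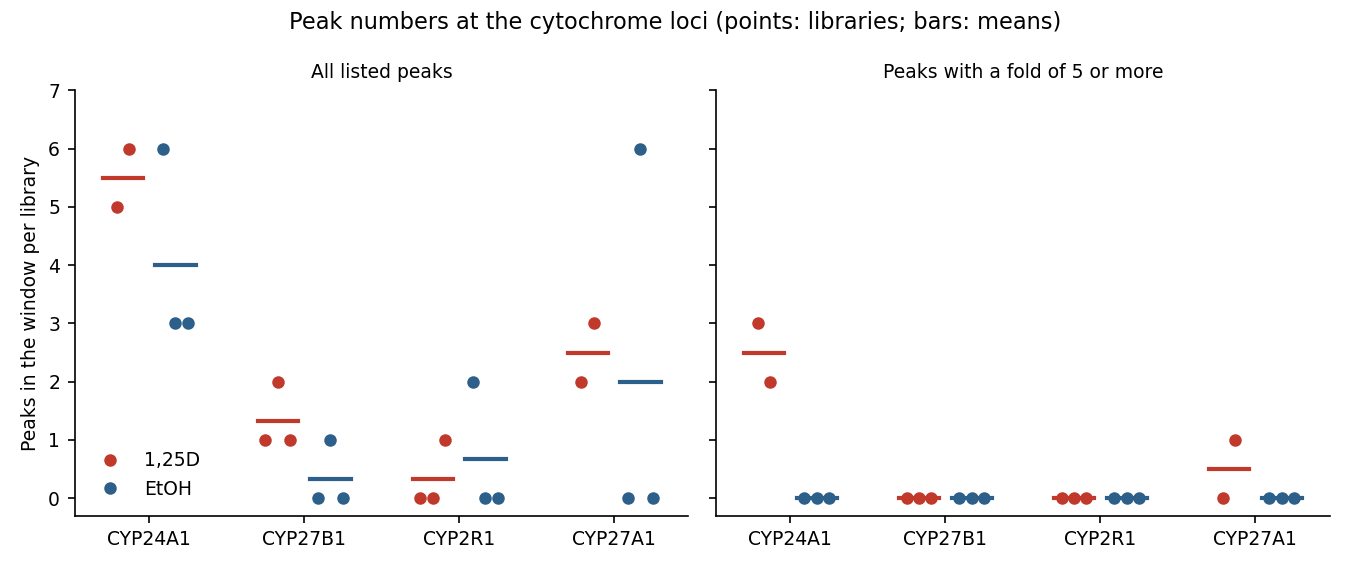
Number of peaks per library in each window (y axis), with all listed peaks on the left and those reaching a fold of 5 on the right; points are libraries and bars are means, with 1,25D left of EtOH. Among all peaks the treatments overlap at every gene, and at a fold of 5 or more CYP24A1 is the gene where they do not.

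Each gene's site with the highest mean percentile of fold, taken within and then over the lists that called it, was set beside other sites called in the same lists. This mean does not pick the site with the highest fold at CYP24A1, where a weak EtOH peak lowers that of the site at 57.9 kb, or at CYP27A1, where it picks a peak of EtOH replicate 2 over the 1,25D-only site. For the CYP24A1 start site, at percentile 78.3 over 2 lists and among 626 other 1,25D-only sites, the nearest were on chromosome 2 at 106416015, chromosome 3 at 106176506 and chromosome 5 at 37888561. For the upstream CYP27B1 site, at 52.6 over 2 lists, they were on chromosome 16 at 4066770, chromosome 11 at 36272248 and chromosome 1 at 45949117. For CYP2R1 and CYP27A1 the sites so picked, the 1,25D peak 21.8 kb upstream of CYP2R1 and an EtOH peak at 219615776 upstream of CYP27A1, were in 1 list each. The CYP2R1 peak tied in percentile with sites on chromosome 1 at 23399741, 45660644 and 47817941. The CYP27A1 peak tied with sites on chromosome 16 at 71139888 and 72854759 and was close to one on chromosome 20 at 22757340.

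Promoter sequences of 2 of the 4 genes, CYP2R1 (3 starts) and CYP27A1 (1 start), were matched in RefSeq's table of build GRCh38.p14. They were searched on both strands, from 250 bases before to 50 after the start, for the DR3 element, the pair of VDR half-sites 3 bp apart, with at most 2 mismatches over 12 specified bases. Neither gene had a peak at its start in any list, and of the 4 promoters 1, that of CYP27A1, held a match. It is printed for that reason, as the 250 bases before the start (chr2:218781897-218782146, plus strand), with the match in capitals.
CYP27A1 promoter: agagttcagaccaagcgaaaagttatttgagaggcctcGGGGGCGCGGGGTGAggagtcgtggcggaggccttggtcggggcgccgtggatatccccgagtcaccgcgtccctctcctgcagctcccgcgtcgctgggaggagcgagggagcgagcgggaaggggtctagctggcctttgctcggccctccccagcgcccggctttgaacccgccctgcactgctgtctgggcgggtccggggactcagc
The match begins 212 bases before the start. A match of this kind was in 46.1% of all 35116 promoters of the table, so its presence at CYP27A1 is common. With at most 1 mismatch the CYP27A1 match was lost and 5.29% of promoters held one. RefSeq's start and the gene start used for hg19 come from different annotations and were not aligned.

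The limit of 100 kb left out peaks next to the windows. At CYP24A1 the outermost peak inside was 76.9 kb from the gene body, with a fold of 3.09, and the first one outside was 186 kb away, with 3.01. At CYP27A1 these were 77.0 kb (3.09) and 101 kb (2.53), at CYP27B1 85.5 kb (2.77) and 124 kb (3.01), and at CYP2R1 64.9 kb (2.62) and 112 kb (3.71). The CYP2R1 peak outside, in 1,25D replicate 1, is above every fold inside that window, where the highest is 3.45.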

How the data were processed

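The submitters' processing notes list Bowtie 1.1, MACS2 and the build hg19 (GRCh37); the MACS2 version and the settings are not given in the sources. Each deposited list belongs to 1 library and holds peak positions, a fold enrichment, which is a ratio over the authors' background, and a p-value from the authors' caller, as the file headers name them (per the file headers). The highest p was 0.00431 to 0.00433 in both replicates 1 and 0.00978 to 0.00997 in the others; no window peak had a p above 0.00243, so this limit removed none of them. Whether starts count from 0 or 1 is not stated.

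With Python 3.11.15, peaks were counted per window, gene bodies being those of the rule, and merged into sites. Peak numbers were compared by exact permutation of the libraries. Background windows tile the shared part of the genome at each window's length, peaks assigned by centre. The sites named are those in at least 2 lists or with a fold of 5 or more. The 4 genes, lists and tests were chosen with earlier results of these data known. The planned count over other vitamin D genes was not run, since no hg19 annotation was used here. Alternatives were other flanks, thresholds, list lengths, overlaps, left-out libraries and a replicate block. Merging and site calls were tested on simulated lists, and the exact tests on small examples with 3 libraries in each group. The permutation of 2 against 3 libraries and the counting in windows were not effectively tested.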

Additional observations from a re-analysis of the deposited data

How the results depend on the processing

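The 13 results had 152 alternatives in all, counted result by result. The excess of peaks at CYP24A1 after 1,25D, 1.5 peaks per library, kept its sign under its own alternatives, at 1 to 2.5 without 1 library and 0.5 with a flank of 50 kb (exact permutation p = 0.8). Using 1 highest p for all lists could not change it, since that limit removes no window peak. At CYP27B1 it was 1, 0.667 to 1.33 without 1 library, 0.333 with a flank of 50 kb (exact permutation p = 1) and 0 at a fold of 5 or more. At CYP2R1 (-0.333) it was 0 among peaks reaching a fold of 5 and also with a flank of 50 kb, 0.333 with equal list length, and -0.667 to 0.333 without 1 library. At CYP27A1 (0.5) it was -0.167 with a flank of 200 kb and -0.5 to 2.5 without 1 library, with 0 without 1,25D replicate 3, -0.5 without EtOH replicate 1 or 3 and 2.5 without EtOH replicate 2. The cause was not tested. No peak-number test passed 0.05 under any setting, since these designs cannot give so low a p.

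At a fold of 5 or more the 2 CYP24A1 sites at 45.5 and 57.9 kb lost their EtOH peaks and replaced the start site as 1,25D-only. The share of such sites at this cut was not counted. CYP24A1 had 0 sites in every list and CYP27A1 0 1,25D-only sites. Without 1 library, where fewer lists have to agree, there were 1 to 3 1,25D-only sites at CYP24A1, 1 to 3 at CYP27A1 and 0 to 1 at CYP27B1, and 1 to 2 sites in every list at CYP24A1. A DR3 match was held by 1 gene, or 0 with at most 1 mismatch and 2 with at most 3, which 97.8% of promoters hold.

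Whether libraries of the same replicate number belong together is not stated in the labels. Deviations of log2 fold at the 298 sites called in all 6 lists correlated at 0.0895, -0.00461 and -0.0235 between libraries of the same number. Between different numbers the range was -0.0892 to 0.098. These sites are few and were picked for being in every list, so the values cannot settle the pairing. Both replicates 1 had a lower highest p than the other lists. With the replicate block the excess was 1 at CYP24A1 (exact sign-flip permutation p = 1) and at CYP27B1 (0.25), -0.333 at CYP2R1 (1) and 2.5 at CYP27A1 (0.5). The smallest p of this test is 0.25 with 3 pairs and 0.5 with 2, so it could not change a call. At CYP24A1 and CYP27A1 the block left out EtOH replicate 2, whose partner list does not reach them. Its excess there is the same as without EtOH replicate 2.

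With no read counts, a weak site and a missed one cannot be told apart, and CYP24A1 and CYP27A1 rest on 2 1,25D libraries.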
